A study of Pogonatum aloides with 7 samples.

Results

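The big capsules of stage 5 were compared with the middle-sized capsules of stage 4 of the moss Pogonatum aloides, by joining the RPKM values of both libraries on the unigene identifier. A unigene is a transcript sequence put together from the RNA reads themselves, with no genome as a guide. RPKM relates the reads of a unigene to its length and to the depth of the library. Of the 74566 unigenes in the files, 36331 reached 1 RPKM in at least one of the 2 libraries and were kept, and 10768 reached 10 RPKM. The series holds 6 libraries analysed here, all from wild-type plants: the small capsules of stages 1, 2 and 3, the middle-sized capsules of stage 4, the big capsules of stage 5, and young gametophytes, which the labels call seedlings and the design names as the control. A pooled sample of the same material was not analysed here. The labels give no age, no culture condition and no number of plants per library. Each stage had 1 library, so no replicate spread exists, no test could be made and no p-value is given.

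In mosses the capsule is the spore-bearing end of the diploid sporophyte, which grows on and is fed by the haploid leafy gametophyte. As a capsule matures, the sporogenous tissue inside it passes through meiosis and forms spores with thick walls, while the outer tissue photosynthesises, carries the stomata where a species has them, and later dries. The step from middle-sized to big capsules was the last interval sampled, and it is the only step between consecutive stages in which neither capsule is labelled small. The identifiers carry cluster and unigene numbers and no gene names, so genes and pathways could not be named, and the labelled tissue could not be checked against marker genes. Unigenes are therefore described by their level in each library. Where a library holds a mixture of tissues, fewer cells of a type and less RNA per cell cannot be told apart.

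The steps between low RPKM values implied totals of 5458335 reads in stage 4 and 5729201 reads in stage 5, so depth differed little. On a unigene of 1 kb, 3 reads give 0.55 RPKM in stage 4 and 0.524 in stage 5. The RPKM values summed to 721917 in stage 4 and 636518 in stage 5. Stage 4 listed 39269 unigenes and stage 5 listed 43323. All intervals given here cover counting error only, since they say nothing about how much a second library of the same stage would differ.

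More unigenes were higher than lower in the big capsules. Taking RPKM + 1 in both libraries and a threshold of 2-fold, 10201 unigenes were higher in stage 5 (28.1% of those kept) and 6460 were lower (17.8%). The median unigene stood 0.28 higher in stage 5 on the log2 scale of RPKM + 1, with quartiles at −0.62 and 1.11. Fold changes on this scale understate the differences of low unigenes. Unigenes listed in stage 4 and in none of the other 5 libraries can only count as lower, and 1418 of them were among those kept. Without them 5042 unigenes were lower (14.4% of 34913), the 10201 higher ones were 29.2%, and the median was 0.33. The size of the overall shift depended on the scaling. The median was 0.15 after rescaling stage 5 by the median ratio and 0.30 after rescaling by the upper quartile. A trimmed mean of log ratios divided the RPKM of stage 5 by 1.19 and left a median of 0.049, with 8378 unigenes higher and 7529 lower.

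**Figure D1:**
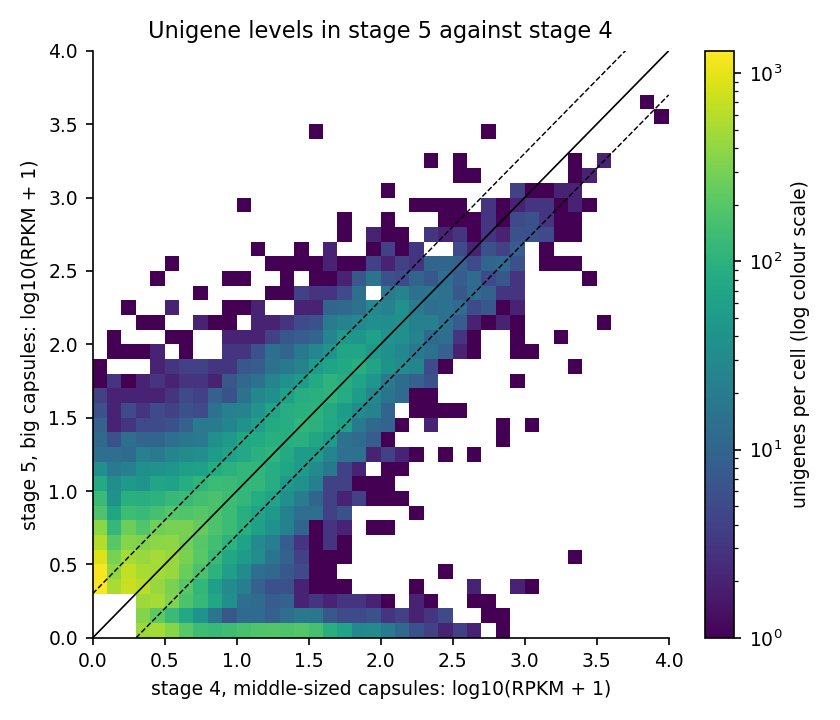
Levels in stage 4 (horizontal axis) and stage 5 (vertical axis) as log10(RPKM + 1) for the 36331 unigenes with 1 RPKM or more in either library, where colour gives the number of unigenes in each cell, the solid line marks equal levels and the dashed lines mark 2-fold differences. The band of unigenes along the bottom edge, above 10 RPKM in stage 4 and near 0 in stage 5, includes 1190 unigenes that stage 5 did not list at all, while 109 unigenes of 10 RPKM or more in stage 5 were not listed in stage 4.

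At a higher minimum the balance as deposited turned, but only with the unigenes listed in stage 4 only counted. At a minimum of 10 RPKM, 2277 of the 10768 unigenes were higher in stage 5 (21.1%) and 2896 were lower (26.9%), and the median was −0.037. Without the 943 unigenes listed in stage 4 only, 1953 were lower (19.9% of 9825), 2277 were higher (23.2%), and the median was 0.10. Rescaled by the trimmed mean, 1547 were higher and 3362 lower at this minimum. Called unigenes that were higher thus made up 44.0% as deposited and 31.5% after that rescaling, against 61.2% and 52.7% at a minimum of 1 RPKM. As deposited and without unigenes listed in stage 4 only, the share was 53.8% at 10 RPKM and 66.9% at 1 RPKM. Differences of 10-fold or more were more often towards stage 4. At 10 RPKM or more, 1440 unigenes were at least 10-fold lower in stage 5 (13.4%) and 289 were at least 10-fold higher (2.68%). Without unigenes listed in stage 4 only these numbers were 497 (5.06%) and 289 (2.94%). This minimum still held 452 unigenes listed elsewhere, but at under 10% of their stage 4 level in each other library. Stage 5 listed 240 of the 452, and those it did not list are among the 497 by construction. Whether the direction at 10-fold holds without the 452 was not tested. At 4-fold the balance rested on the unigenes listed in stage 4 only, with 1742 lower (16.2%) and 892 higher (8.28%) when they were counted, and 799 lower (8.13%) and 892 higher (9.08%) without them.

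Many of the calls rested on few reads. Of the 10201 higher unigenes, 6863 (67.3%) had under 20 reads in both libraries, as had 3409 of the 6460 lower ones (52.8%). At 10 RPKM or more the share was 6.19% of the higher and 9.63% of the lower unigenes. The 95% exact counting interval of the read ratio lay wholly beyond 2-fold for 2827 higher and 2827 lower unigenes, 7.78% each of the 36331. Without unigenes listed in stage 4 only, it did so for 2827 higher (8.10% of 34913) and 1686 lower unigenes (4.83%). At 10 RPKM or more it did so for 1554 higher (14.4%) and 2280 lower unigenes (21.2%), and the lower ones numbered 1337 without those listed in stage 4 only (13.6% of 9825). After rescaling by the trimmed mean these numbers were 1206, 2703 and 1760. Calls near the threshold lay at low levels. The 1398 unigenes between 2 and 2.2-fold higher had medians of 0.733 RPKM in stage 4 and 2.75 RPKM in stage 5. The 1345 between 1.8 and 2-fold, just short of the threshold, had medians of 1.64 and 3.95 RPKM. On the lower side the 779 unigenes between 2 and 2.2-fold had medians of 4.48 RPKM in stage 4 and 1.64 RPKM in stage 5, and the 969 between 1.8 and 2-fold had 4.11 and 1.67 RPKM.

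For scale, the small capsules of stages 3 and 1, which share no library with this comparison, differed by at least 2-fold in 30.9% of 35123 unigenes. Between stages 5 and 4 it was 45.9% of 36331, or 43.7% of 34913 without unigenes listed in stage 4 only. Pairs with stage 2 were not compared and could differ more. Among the 10768 unigenes, stage 2 was at least 2-fold above both other small capsules for 17.1%, stage 1 for 5.78% and stage 3 for 0.762%. Another comparison came from unigenes that were even elsewhere. There were 570 unigenes with at least 10 RPKM in each of the small capsules and the gametophyte and a range within 1.5-fold over these 4 libraries. Their median log2 ratio between stages 5 and 4 was 0.033, with quartiles at −0.37 and 0.43. Of them 6.49% were at least 2-fold higher and 5.26% at least 2-fold lower in stage 5. Rescaled by the trimmed mean, their median was −0.21, so that this rescaling moved them away from equality. Which scaling is right cannot be told from these unigenes. They were chosen at 10 RPKM or more and for evenness, so they do not gauge the spread of unigenes of low level.

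Among unigenes listed in both libraries, the one furthest from equality towards the big capsules by its counting interval was CL7672.Contig5, with a recovered length of 3845 bases. Small capsules of stages 1, 2 and 3 held it at 55.1, 6.65 and 15.5 RPKM, and it stood at 0.715 RPKM in stage 4, at 168 RPKM in stage 5 and, in the young gametophyte, at 2.45 RPKM. Stage 5 was the highest library, stage 1 came next, and stage 4 was the lowest of all 6. With 3705 reads in stage 5 and 15 in stage 4, the read ratio was 235, and its 95% exact counting interval ran from 142 to 421. Other contigs carry the same cluster number, so reads of similar contigs may have been shared out between them and the value of a single contig is uncertain.

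The most abundant unigene among those higher in the big capsules was Unigene28108, of 3128 bases. Small capsules held it at 840 RPKM in stage 1, but at 2.001 and 2.002 RPKM in stages 2 and 3. It reached 32.4 RPKM in the middle-sized and 2795 RPKM in the big capsules, and the gametophyte did not list it. It was thus abundant in the first and the last capsule stage and low in the small capsules of stages 2 and 3, with 36 reads in each. The read ratio of stage 5 to stage 4 was 86.3 (95% exact counting interval 79.4 to 94.0), from 50096 and 553 reads. The log2 ratio of RPKM + 1 was 6.39, and that of CL7672.Contig5 was 6.62.

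By the same measure the unigene furthest from equality towards stage 4, among those listed in both libraries, was Unigene30426, of 1236 bases. It stood at 586 RPKM in stage 4 and at 0.282 RPKM in stage 5. Elsewhere it was listed at 0.141 RPKM in stage 1 and 1.27 RPKM in stage 3, and not at all in stage 2 or the gametophyte. Every library other than stage 4 was thus at or near 0, with 1 read in stage 1, 9 in stage 3 and 2 in stage 5. With 3955 reads in stage 4 and 2 in stage 5 it was 2076-fold lower by reads (95% exact counting interval 574 to 17145), and the log2 ratio of RPKM + 1 was −8.84.

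A different kind of difference was that of Unigene26746, of 248 bases, the most abundant unigene among those lower in the big capsules. It was abundant everywhere. Small capsules held it at 3725, 4969 and 4912 RPKM in stages 1, 2 and 3, middle-sized capsules at 8150, big capsules at 3278 and young gametophytes at 2391 RPKM. Stage 4 was the highest library and stage 5 the lowest of the 5 capsule libraries. It was 2.49-fold lower in stage 5 by reads (95% exact counting interval 2.40 to 2.57), with a log2 ratio of RPKM + 1 of −1.31.

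**Figure D2:**
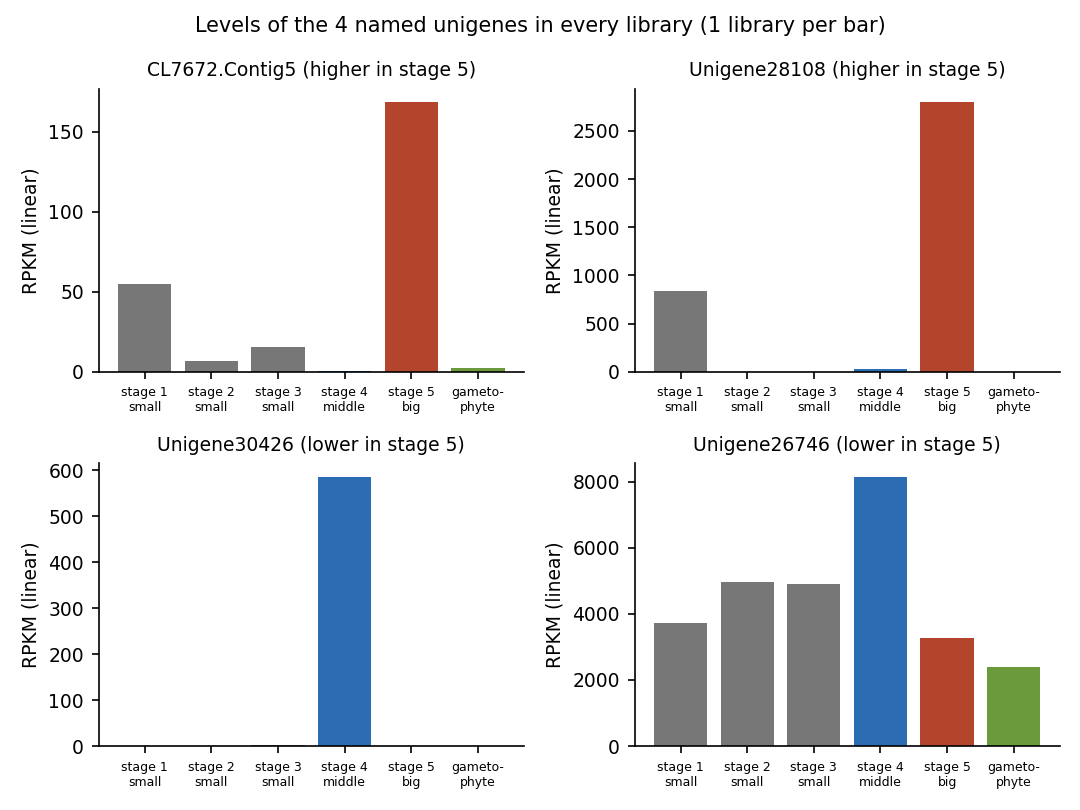
RPKM on a linear axis in each of the 6 libraries for the 4 named unigenes, with a single library per bar and a separate scale per panel. Unigene28108 reached 2795 RPKM in stage 5 and 840 RPKM in stage 1, Unigene30426 reached 586 RPKM in stage 4 and was near 0 elsewhere, and Unigene26746 was above 2000 RPKM in every library.

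Among the most abundant unigenes higher in stage 5, levels in stage 1 above those in stage 4 recurred. Among the most abundant lower ones, modest ratios like that of Unigene26746 recurred. The near absence of Unigene30426 from stage 5 did not recur among these lower ones. The 10 most abundant unigenes higher in stage 5 ranged from 901 to 2795 RPKM there, with a median of 1312, and from 32.4 to 625 RPKM in stage 4, with a median of 239. In stage 1 they had a median of 605 RPKM, and 8 of the 10 were above their stage 4 level there, against 3 of 10 in stage 2 and 3 of 10 in stage 3. The 10 most abundant unigenes lower in stage 5 ranged from 2428 to 8150 RPKM in stage 4 and from 131 to 3278 RPKM in stage 5. For 6 of these the RPKM ratio of stage 4 to stage 5 was under 3, with a median of 2.43 over the 10 and an extreme of 24.1. In the gametophyte 4 of the 10 were not listed, while the highest stood at 21908 RPKM.

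The 100 most abundant unigenes of each library overlapped by 59, which is 59.0% of each list. The list of stage 4 held 20.7% of the summed RPKM in stage 4 and 11.1% in stage 5. The list of stage 5 held 14.9% in stage 5 and 15.8% in stage 4. Of the stage 4 list, 56 unigenes were at least 2-fold lower in stage 5 and 0 were at least 2-fold higher. Of the stage 5 list, 23 were at least 2-fold higher in stage 5 and 21 at least 2-fold lower. The stage 4 list holds its members partly because they are high in that library, so its direction is fixed in part by how it was drawn.

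To lessen that choice, unigenes were grouped by their mean level in the small capsules, which took no part in the comparison. The minimum of 1 RPKM in stage 4 or stage 5 still held. Unigenes under 1 RPKM or not listed in the small capsules thus entered through a compared library, which in part fixes their shares past 2-fold. The share lower in the big capsules was 17.2% of 8112 unigenes under 1 RPKM, 13.7% of 11061 at 1 to 3 RPKM, 14.3% of 6737 at 3 to 10 RPKM and 12.2% of 3615 at 10 to 30 RPKM. It was smallest at 30 to 100 RPKM, with 9.46% of 3003 unigenes, and larger again above that, with 16.2% of 904 at 100 to 300 RPKM, 33.5% of 224 at 300 to 1000 RPKM and 48.8% of 43 at 1000 RPKM or more. The share higher was smaller in each class than in the one below it, from 35.9% under 1 RPKM to 17.8% at 30 to 100 RPKM, 4.91% at 300 to 1000 RPKM and 4.65% at 1000 RPKM or more. The median log2 ratio was 0.49 under 1 RPKM, 0.17 at 30 to 100 RPKM, −0.092 at 100 to 300 RPKM, −0.64 at 300 to 1000 RPKM and −0.86 at the top. Under the trimmed mean these medians were 0.32, −0.071, −0.34, −0.89 and −1.11, so the sign at 30 to 100 RPKM turned while the order from low to high abundance did not. The lowest groups also rest on the fewest reads. Among the 2632 unigenes not listed in any small capsule, 1627 were lower in stage 5 (61.8%) and 689 were higher (26.2%), and 1418 of the lower ones were listed in stage 4 only.

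**Figure D3:**
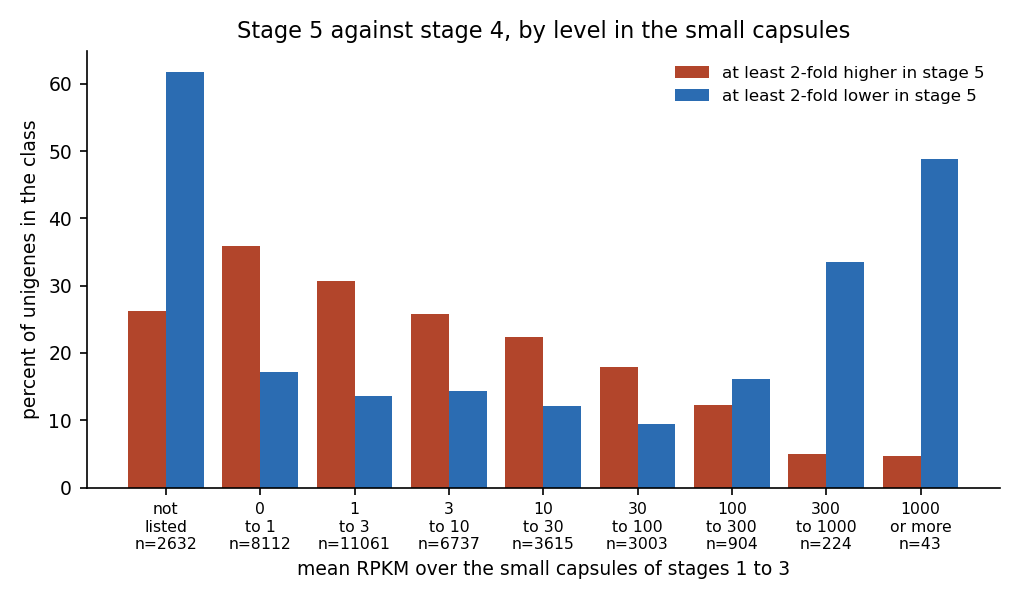
Percent of unigenes at least 2-fold higher (red) or lower (blue) in stage 5 than in stage 4, for classes of mean RPKM over the small capsules, with the number of unigenes under each class. Of the 2632 unigenes not listed in the small capsules, 26.2% were higher and 61.8% lower. In the other classes the red bars fall from 35.9% under 1 RPKM to 4.65% at 1000 RPKM or more. The blue bars stand at 17.2% under 1 RPKM, are lowest at 30 to 100 RPKM with 9.46%, and then climb to 48.8%.

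A set drawn by level in the compared libraries is only a description, since a high level in one of them can bring a unigene in. Among the 42 unigenes with a mean over stages 4 and 5 above 1000 RPKM, 37 were below their stage 4 level in stage 5, 24 of them by at least 2-fold, and 3 were at least 2-fold higher. Of the 42, 35 were listed in all 6 libraries. Of the 24 lower ones, 17 stood at 10 RPKM or more in the gametophyte and 6 were not listed there. Stage 4 was the highest of the 6 libraries for 18 of the 24, and stage 5 the lowest of the 5 capsule libraries for 13. The 42 together held 12.3% of the summed RPKM in stage 4 and 7.60% in stage 5, with 8.80%, 11.1% and 11.8% in stages 1, 2 and 3 and 5.96% in the gametophyte.

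The level in the gametophyte gave a similar order. Of 880 unigenes at 100 RPKM or more in the gametophyte, 264 (30%) were lower in the big capsules and 42 (4.77%) were higher, with a median log2 ratio of −0.53. Of 5345 at 10 to 100 RPKM, 13.0% were lower and 14.3% higher. Of the 14743 unigenes not listed in the gametophyte, leaving out those listed in stage 4 only, 16.6% were lower and 38.0% higher, with a median of 0.50. The minimum of 1 RPKM in stage 4 or stage 5 held here too, so those not listed entered through the compared libraries. The medians at 100 RPKM or more and among those not listed kept their signs under the trimmed mean, at −0.77 and 0.33, whereas that at 10 to 100 RPKM turned from 0.051 to −0.19.

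Unigenes higher in the big capsules were often also high in the small capsules of stage 1. The 1554 unigenes with 10 RPKM or more and an interval beyond 2-fold had medians of 18.6, 9.38 and 10.6 RPKM in the small capsules of stages 1, 2 and 3 and of 4.02 RPKM in gametophytes. These 4 libraries did not enter the choice, whereas the medians of 5.75 RPKM in stage 4 and 32.7 RPKM in stage 5 follow from it. Stage 1 was the highest of the small capsules for 894 of them (57.5%), against 29.8% of the 9825 unigenes at this minimum that were not listed in stage 4 only. It was at least 2-fold above both other small capsules in RPKM + 1 for 388 (24.97%), against 6.33% of the 9825. All 4 of the other libraries listed 1118 of the 1554 (71.9%), against 79.7% of the 9825.

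Unigenes lower in the big capsules were seldom highest in stage 1 among the small capsules. Without those listed in stage 4 only, the 1337 with an interval beyond 2-fold had medians of 1.13, 8.90 and 1.68 RPKM in the small capsules of stages 1, 2 and 3 and of 0.975 RPKM in gametophytes. They had medians of 39.4 RPKM in stage 4 and 3.38 RPKM in stage 5, by which they were chosen. Stage 1 was the highest of the small capsules for 101 (7.55%), against the 29.8% of the 9825. Stage 2 was the highest for 669 (50.04%), against 43.5% of the 9825, and stage 3 for 452 (33.8%), against 24.8%. Stage 2 was at least 2-fold above both other small capsules for 403 (30.1%), against 18.7% of the 9825. The gametophyte did not list 608 of them (45.5%), against 18.5%. These 1337 include 452 unigenes listed elsewhere, but at under 10% of their stage 4 level in each other library. The 452 had medians of 0 in stages 1 and 2 and 0.197 RPKM in stage 3, and the gametophyte listed 21 of them. They thus lower the medians and raise the share not listed in the gametophyte. Shares for the other 885 alone were not computed.

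**Figure D4:**
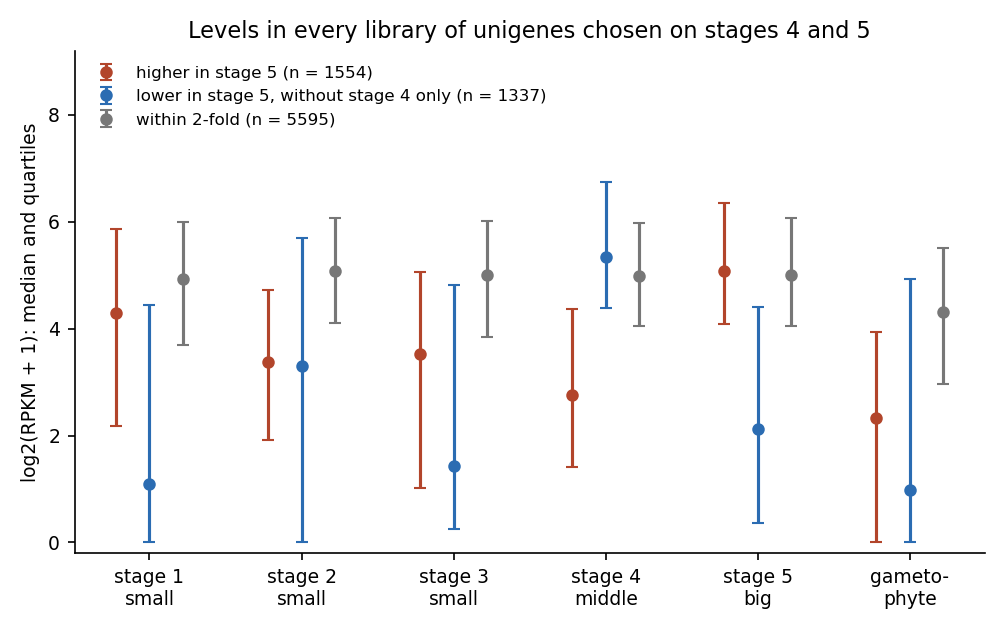
Median (points) and quartiles (bars) of log2(RPKM + 1) in each library for unigenes of 10 RPKM or more that were higher (1554) or lower (1337, without those listed in stage 4 only) in stage 5 with a counting interval beyond 2-fold, and for the 5595 within 2-fold. Stages 4 and 5 chose the sets, and in the other 4 libraries the red medians are highest in stage 1, at 18.6 RPKM, and the blue medians in stage 2, at 8.90 RPKM.

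The same relation was seen when the unigenes kept were grouped by the small capsules alone, a grouping chosen after these values were seen. Of 412 unigenes with at least 10 RPKM in stage 1 and a level at least 4-fold above both stages 2 and 3, 320 (77.7%) were higher in the big than in the middle-sized capsules and 11 (2.67%) were lower, with a median log2 ratio of 1.94. The counting interval lay beyond 2-fold for 229 and 4 of them. Of 1008 unigenes that peaked in this way in stage 2, 94 (9.33%) were higher and 362 (35.9%) lower, with a median of −0.56. Of 18 unigenes that peaked in this way in stage 3, 1 was higher and 9 were lower, with a median of −0.98. Where the small capsules lay within 2-fold of each other, with at least 10 RPKM in one of them, 15.0% of 4428 were higher and 8.22% lower, with a median of 0.14. Under the trimmed mean the medians of the stage 1 and stage 2 classes were 1.77 and −0.79, and that of the even class turned to −0.097. With 1 library a stage, a feature of a stage and a feature of its library cannot be told apart.

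**Figure D5:**
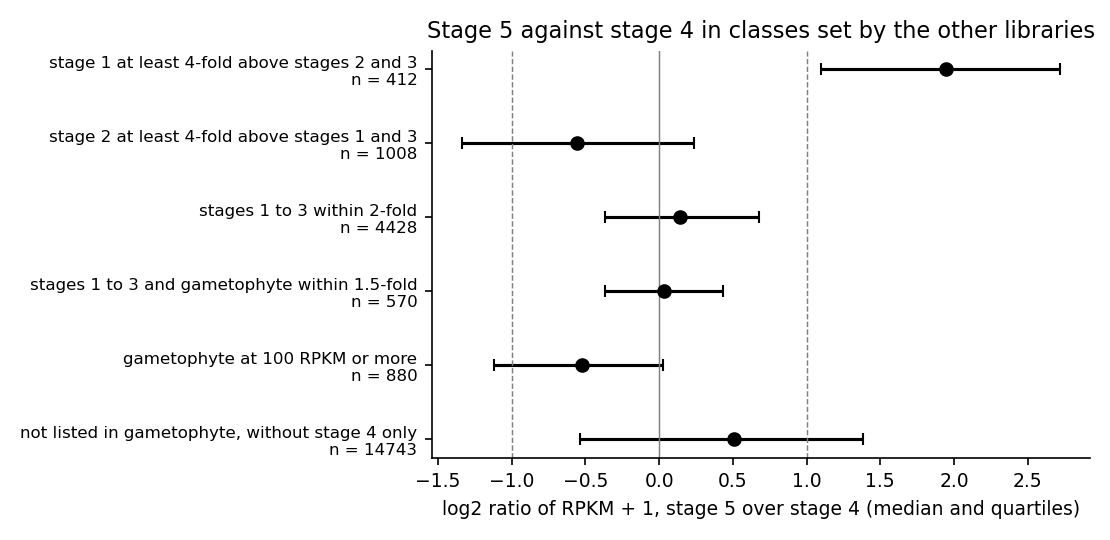
Log2 ratio of RPKM + 1 between stages 5 and 4, as median (point) and quartiles (bar), for classes of unigenes drawn from the other libraries, where the solid line marks equality and the dashed lines 2-fold. The class that peaked in stage 1 has a median of 1.94, that which peaked in stage 2 a median of −0.56, and the class even over 4 libraries a median of 0.033.

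Very large differences were shaped unlike on the 2 sides. The counting interval lay wholly beyond 10-fold for 205 unigenes higher in stage 5 (0.564% of the 36331) and for 797 lower (2.19%). The 205 had a median recovered length of 1678 bases, against 460 bases for all unigenes kept. At 10 RPKM or more, without those listed in stage 4 only, the median was 1230 bases. An interval beyond 10-fold needs many reads, which favours long unigenes. The 205 were mostly read elsewhere. In the small capsules 104, 31 and 55 of them reached 10 RPKM at stages 1, 2 and 3. Gametophytes had 24 such unigenes, and 28 of the 205 were not listed in stage 1. Their medians were 10.7, 1.61 and 1.62 RPKM in stages 1, 2 and 3 and 0.744 RPKM in gametophytes. Of the 797 lower ones 418 were listed in stage 4 only, so that no other library holds them by definition. The remaining 379 had a median recovered length of 720 bases and medians of 48.8 RPKM in stage 4, 0.23 RPKM in stage 3 and 0.0989 RPKM in stage 5. Stage 3 listed 253 of the 379, stage 5 listed 198, and 122, 83 and 29 were listed in stage 2, in stage 1 and in gametophytes. Counted in each library other than stage 4 by itself, at most 18 of them reached 10 RPKM, in stage 2. The 379 held 6.701% of the summed RPKM of stage 4, and the 797 held 8.76%.

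Unigenes listed in stage 4 only numbered 1637 at any level, against 1018 listed in stage 5 only. The former had a median of 12.5 RPKM with quartiles at 4.24 and 24.1 RPKM and a highest value of 138 RPKM. The latter had a median of 0.895 RPKM with quartiles at 0.506 and 2.49 RPKM and a highest value of 54.8 RPKM. At 10 RPKM or more there were 943 in stage 4 and 20 in stage 5, and at 20 reads or more 771 and 18. Unigenes of 1 RPKM or more listed in stage 4 only or in stage 5 only were short. Their median recovered lengths were 251 bases for stage 4 and 244.5 bases for stage 5, against 460 bases for all unigenes kept. Contigs of clusters made up 1.97% for stage 4 and 15.9% for stage 5, against 26.3% of all kept. Lengths and reads of unigenes listed in only 1 library rest on a single value each and can be underestimated.

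A further 452 unigenes of at least 10 RPKM in stage 4 were listed elsewhere, but at under 10% of their stage 4 level in each other library. They had a median of 39.6 RPKM in stage 4, of 0.197 RPKM in stage 3 and 0.118 RPKM in stage 5, and a median of 0 in stages 1 and 2 and the gametophyte. Stage 3 listed 276 of them, stage 5 listed 240, stage 2 listed 113, stage 1 listed 72 and the gametophyte listed 21. In stage 5 the corresponding number was 82. These 452 held 6.50% of the summed RPKM of stage 4, beside 3.31% for the 943 listed there only. Leaving out both kinds, which removes lower unigenes by construction, left 1501 lower against 2277 higher at 10 RPKM, and 885 against 1554 by the counting interval. Whether the 2 kinds belong to the middle-sized stage or to this library cannot be told apart with 1 library.

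Presence in only one of the pair mostly rested on few reads. There were 9382 unigenes listed in stage 5 and not in stage 4, and 5328 listed in stage 4 and not in stage 5. Of the former 3555 rested on 1 read and 184 on at least 20 reads, and of the latter 1761 and 1023. The 9382 held 2.49% of the summed RPKM of stage 5, and the 5328 held 5.96% of that of stage 4. The most abundant unigene of stage 5 with no value in stage 4, of 257 bases, stood at 63.2 RPKM with 93 reads, at least 29.5-fold above the 2.14 RPKM that 3 reads would give it in stage 4, and at 111 RPKM in the gametophyte. The most abundant of stage 4 with no value in stage 5, of 537 bases, stood at 495 RPKM with 1452 reads, at least 508-fold above the 0.975 RPKM of 3 reads in stage 5. It was at 0.324 RPKM in stage 1 and 0.648 RPKM in stage 3 and was not listed in stage 2 or the gametophyte.

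Contigs that share a cluster number mostly differed in the same direction. Of 335 clusters with at least 2 contigs past 2-fold, 194 had all of these higher in stage 5, 102 had all of them lower, and 39 (11.6%) had some of each. With the counting interval beyond 2-fold, 85 of 125 such clusters had all higher, 36 all lower and 4 some of each. Summed over contigs, 129 of 1072 clusters with at least 20 RPKM in both libraries were at least 2-fold higher in stage 5 (12.03%) and 88 lower (8.21%). The contig with the highest level differed between the libraries in 51 of the 1072 (4.76%), and the cluster sum lay within 2-fold in 35 of these 51. In 777 of the 1072 the leading contig of stage 4 held at least 90% of the cluster in both libraries, and in 429 a second contig reached 1 RPKM.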

How the data were processed

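Whole transcriptomes were sequenced, per the labels' protocols from total RNA extracted with TRIzol and on an Illumina platform. Per the file headers, the deposited values are RPKM, made by the authors. Dashes in place of a value were taken as 0. Assembler, aligner, counting rule and strand setting: not given in the sources used here. All 74566 identifiers were joined between files, and 0 of them held anything other than cluster or unigene numbers.

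Library totals were estimated from the steps between low values. For each unigene the smallest whole length from 200 to 15000 bases was taken that turns each of its values into a whole number of reads, to within 0.9 of the last printed digit. A length was found for 74566 unigenes (100%), and the reads summed to 99.4% of the stage 4 total and 99.6% of the stage 5 total. If each read had been counted more than once throughout, this would not show. Recovery and intervals were tested on simulated data.

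Ratios were taken on RPKM + 1 for unigenes of at least 1 RPKM in either library, and repeated at 10. Intervals are 95% exact conditional-binomial intervals of the read ratio. Alternatives changed the minimum, the pseudocount, the scaling, the unigenes kept and the summing of contigs. Python 3.11.15, pandas 2.3.3 and scipy 1.17.1 were used. The unigenes, classes and lists were chosen with earlier results of these data known. In each direction, 2 identifiers are named: among unigenes listed in both libraries the one whose interval lay furthest from equality, and among all past 2-fold the one with the highest RPKM in the library where it was higher.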

Additional observations from a re-analysis of the deposited data

How the results depend on the processing

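No paired analysis was possible because each stage had 1 library. The counts of 10201 higher and 6460 lower unigenes stayed within 1.5 times under no minimum, a pseudocount of 0.1 RPKM, 3 rescalings of stage 5, summed contigs, and without unigenes listed in stage 4 only. Numbers higher and lower were 2277 and 2896 at a minimum of 10 RPKM, 2566 and 3010 with a pseudocount of 5 RPKM, 5711 and 3390 among unigenes listed in both libraries, 3763 and 2177 at a length of 500 bases or more, and 2827 and 2827 by the counting interval. By the counting interval they were 2827 and 1686 without unigenes listed in stage 4 only. A higher minimum, a minimum length and a listing in both libraries keep fewer unigenes. The majority thus turned with the larger pseudocount and at 10 RPKM, both with unigenes listed in stage 4 only counted, and the cause was not tested. As deposited, it did not turn at 10 RPKM without them. With the larger pseudocount, counts without them were not made. The 1418 of them that were kept had a lower quartile of 7.86 RPKM in stage 4, so most still counted as lower there. In combinations chosen after seeing the data, at a minimum of 10 RPKM, they were 2277 and 1953 without unigenes listed in stage 4 only and 1547 and 3362 with the trimmed mean. The median log2 ratio of 0.28 was −0.037 at a minimum of 10 RPKM and −0.37 when the trimmed mean was added. It was 0.10 at that minimum without unigenes listed in stage 4 only, 0.22 with no minimum, 0.33 and 0.13 with pseudocounts of 0.1 and 5 RPKM, 0.15, 0.049 and 0.30 when rescaled by the median ratio, the trimmed mean and the upper quartile, 0.33 without unigenes listed in stage 4 only, 0.21 among unigenes listed in both and 0.22 at 500 bases or more. Clusters with a different leading contig numbered 133 of 2120 from 5 summed RPKM and 18 of 258 from 100. Unigenes listed in stage 5 and not in stage 4 numbered 2344 at 2 RPKM and 184 at 20 reads, and those listed in stage 4 and not in stage 5 numbered 2257 and 1023.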

Other observations

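Unigenes of short recovered length differed more often than long ones between the middle-sized and the big capsules. Of 10431 unigenes of 200 to 300 bases, 35.2% were at least 2-fold higher in stage 5 and 25.6% lower, or 18.2% lower without unigenes listed in stage 4 only. Of 5816 unigenes of 1000 to 2000 bases, 18.7% were higher and 13.2% lower, and of 4708 of 2000 bases or more, 20.1% were higher and 8.33% lower. The share higher thus did not keep falling at the longest lengths while the share lower did. A given RPKM rests on fewer reads on a shorter unigene. Recovered length is also the smallest that fits the listed values, so it can be underestimated for unigenes listed in few libraries. How much of this order either accounts for was not tested.

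Contigs of clusters were less often past 2-fold than single unigenes. Of 9557 contigs, 22.3% were higher in stage 5 and 11.7% lower, and of 26774 single unigenes, 30.2% were higher and 19.9% lower. The 1554 unigenes that were higher with a counting interval beyond 2-fold had a median length of 1262 bases, the 1337 lower ones, without those listed in stage 4 only, 877 bases, and the 5595 within 2-fold at 10 RPKM or more 1448 bases.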
